A study of Homo sapiens with 4 samples.

Results

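The 10 genes of mitochondrial fission and fusion described here were MFN1, MFN2, OPA1, OMA1, YME1L1, DNM1L, FIS1, MFF, MIEF1 and MIEF2. They were taken by gene symbol from a table of 24940 genes. Each symbol matched 1 row, and all 10 passed the filter of at least 1 CPM (counts scaled to library size) in at least 1 library, which 13646 genes passed. The table holds RNA-seq read counts and FPKM (counts scaled to library size and gene length) from MOLM-13, a line established from human acute myeloid leukaemia that carries a KMT2A fusion. The cells were infected with lentiviruses, selected with puromycin (0.5 µg/ml) or G418 (600 µg/ml), and every group received doxycycline to induce its hairpin. The groups were a negative control hairpin (shControl), a hairpin against Bcl-2 (sh-Bcl2), a hairpin against c-Myc (sh-c-Myc), and both hairpins together (sh-c-Myc and sh-Bcl2, called the double knockdown here). The study set the double knockdown against the single knockdowns to examine mitochondria. Each group held 1 library, so no difference between groups has a replicate check, and the 95% intervals given in brackets take in counting error alone.

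Mitochondria form a network that is remodelled by fusion and division. Mitofusins, the GTPases MFN1 and MFN2, join outer membranes, and the GTPase OPA1 joins inner membranes. OPA1 is cut by the peptidases OMA1, which acts under stress, and YME1L1, and the balance of long and short OPA1 forms sets how readily inner membranes fuse. Division is carried out by DRP1, the dynamin-related GTPase encoded by DNM1L, which is recruited from the cytosol by receptors on the outer membrane, mainly MFF and the paralogs MiD51 (MIEF1) and MiD49 (MIEF2), with FIS1 as a further outer membrane adaptor. DRP1 and its receptors are also studied in apoptosis, where mitochondria fragment as the outer membrane is permeabilised, the step that Bcl-2 restrains.

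The libraries held 14421558 to 15691129 counts. BCL2 RNA was lower in both libraries with the Bcl-2 hairpin (log2 ratios to shControl of -1.63 under sh-Bcl2 and -1.43 with both hairpins), and MYC RNA was lower by less in those with the c-Myc hairpin (-0.64 under sh-c-Myc and -0.52 with both hairpins). MYC RNA was also lower under sh-Bcl2 alone (-0.25 [-0.30 to -0.20]), and BCL2 RNA slightly lower under sh-c-Myc alone (-0.10 [-0.20 to -0.005]). All 9 myeloid leukaemia markers, such as CD33, SPI1 and FLT3, reached 1 CPM. Of 9 monocyte and macrophage markers 7 reached 1 CPM, and their summed level was 117 CPM in shControl, 170 under sh-Bcl2, 533 under sh-c-Myc and 471 with both hairpins, with MRC1 and CD68 at 0 in shControl and sh-Bcl2. The summed rise was largest in both c-Myc hairpin libraries, smaller under sh-Bcl2 alone, and not shared by every marker. Under sh-c-Myc, ITGAM and CSF1R rose by the most CPM, to 235 and 179 from 78.1 and 18.95 in shControl, while CD163 was lower (0.577 from 1.14). CSF1R, S100A8 (39.7 from 4.68), S100A9 (48.9 from 7.45) and MPEG1 (28.0 from 6.10) rose by a larger factor than ITGAM. The 9 leukaemia markers summed to 1386 CPM in shControl, 1574 under sh-Bcl2, 2768 under sh-c-Myc and 2683 with both hairpins. Of these, LYZ was higher under sh-Bcl2 alone (91.8 CPM from 36.1) and under sh-c-Myc (240). MPO (652 from 131), PTPRC (626 from 301), FLT3 (671 from 426), SPI1 (252 from 173) and CD33 (62.5 from 45.7) were also higher under sh-c-Myc. MEIS1 was lower there (27.2 from 38.2), and HOXA9 (50.5 from 48.1) and CEBPA (187 from 186) were nearly alike. The part of these myeloid differences in the values below was not tested. Summed levels of B cell, erythroid, epithelial and fibroblast markers were at most 5.26 CPM, and of 3 endothelial markers PECAM1, which myeloid cells also express, reached 414 CPM while VWF was at most 0.594. In bulk RNA, fewer cells of a type and less RNA per cell cannot be told apart.

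In shControl, levels per length of the 10 genes ran from 46.5 FPKM for MFN2 to 1.80 FPKM for MIEF2. The order was MFN2, YME1L1 (32.6 FPKM), FIS1 (23.8), MIEF1 (19.7), OPA1 (13.4), DNM1L (12.7), MFF (8.47), MFN1 (5.17), OMA1 (3.41) and MIEF2. OPA1 [12.8 to 14.0] and DNM1L [12.1 to 13.4] were the only neighbours in that order whose counting intervals overlapped. Each functional pair thus held an abundant and a scarce transcript: MFN2 stood 8.98 times above MFN1 per length, MIEF1 10.9 times above MIEF2 and YME1L1 9.57 times above OMA1. Under sh-c-Myc the order differed in 2 places. DNM1L, at 13.4 FPKM [12.7 to 14.1], stood above MIEF1 (13.0 [12.3 to 13.7]), where intervals overlap, and above OPA1 (11.8 [11.2 to 12.4]), where they do not. MIEF2, at 2.85 FPKM [2.43 to 3.32], stood above OMA1 (2.22 [1.84 to 2.66]), with intervals that overlap. MFN2 lay above 94.1% of the filtered genes in FPKM in shControl, and MIEF2 above 30.4%.

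**Figure D1:**
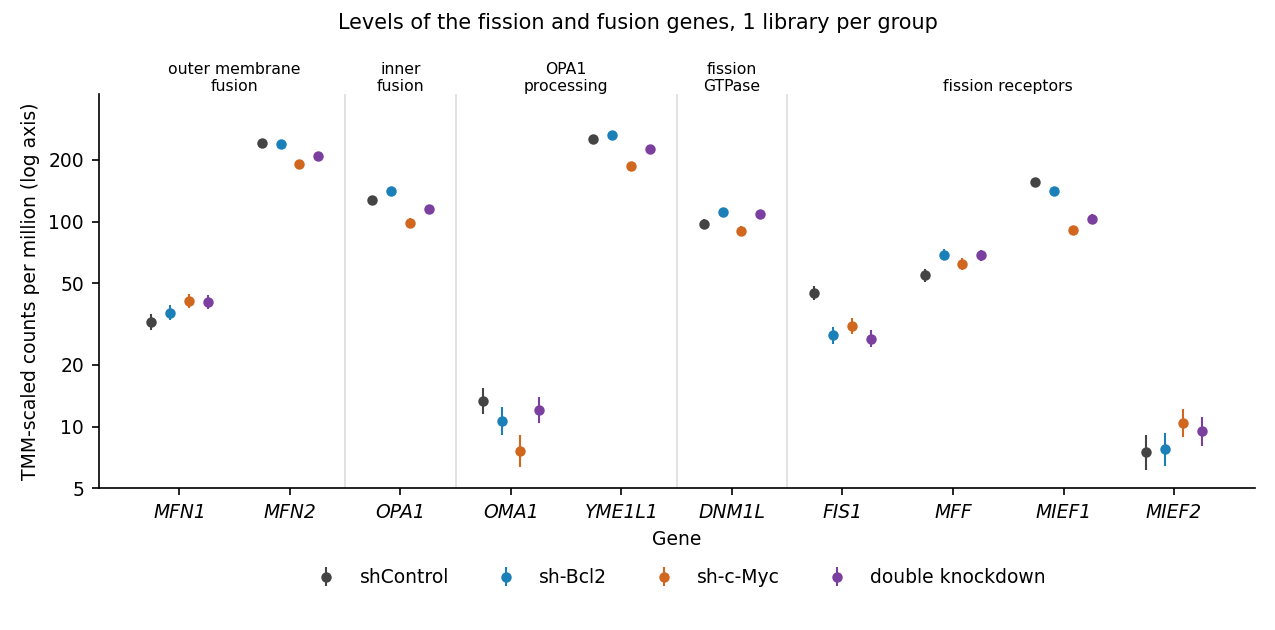
TMM-scaled CPM (log axis) of the 10 genes in the 4 libraries, with 95% counting intervals, grouped by role. MIEF1 stands between 90.6 and 156 CPM, with both c-Myc hairpin libraries lowest, and FIS1 between 26.9 and 45.0 CPM, with shControl highest.

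Bases before the start sites of MFN1, FIS1 and MIEF1 are shown because these genes hold the same transcription factor core there and stood on different sides of shControl under sh-c-Myc. Windows of 250 bases before a RefSeq start site (GRCh38.p14) were found by symbol for 9 of the 10 genes, 12 windows in all, and the entry for YME1L1 was missing. Capitals mark CCGGAAGT, the core bound by ETS factors such as GABP. Its first base lies 22 bases before the start of MFN1, 9 before that of FIS1 and 20 before that of MIEF1, for which 30 bases around it are given.
MFN1 (chr3:179347459-179347708, plus strand): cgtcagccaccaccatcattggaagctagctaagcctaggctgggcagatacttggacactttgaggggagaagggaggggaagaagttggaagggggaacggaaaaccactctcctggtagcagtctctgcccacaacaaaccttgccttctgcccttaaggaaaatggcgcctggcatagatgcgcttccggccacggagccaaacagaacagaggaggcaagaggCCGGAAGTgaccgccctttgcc
FIS1 (chr7:101245082-101245331, minus strand): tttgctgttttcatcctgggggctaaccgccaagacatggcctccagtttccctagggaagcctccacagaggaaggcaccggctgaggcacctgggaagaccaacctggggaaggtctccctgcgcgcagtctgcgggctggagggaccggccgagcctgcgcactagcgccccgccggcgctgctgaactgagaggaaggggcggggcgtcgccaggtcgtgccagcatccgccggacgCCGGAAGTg
MIEF1 (chr22:39502259-39502288, plus strand): cttggagaagaCCGGAAGTccctccgcctc

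CCGGAAGT, searched on both strands, was in 3 of the 12 windows, from 3 of the 9 genes, and 3.42% of 35116 promoter windows of the same length held it. The E-box CACGTG, the site of MYC and MAX, which reads the same on both strands, was in 0 of the 12 windows and in 6.34% of all. GCATGCGC, part of the site of NRF1, a regulator of nuclear genes for mitochondria, was searched on both strands and found, on both at overlapping positions, in the window of OPA1 alone (chromosome 3, 193592958 to 193593207) and in 2.63% of all. No match overlapped a match of another motif, and a match is a description of letters, not a bound site.

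No gene of the 10 was 2-fold apart in any comparison. A gene was called when its libraries were at least 2-fold apart on TMM-scaled counts and the interval excluded a ratio of 1. That rule called 0 of 10 under sh-Bcl2, where it called 4.61% of the 13646 filtered genes, 0 of 10 under sh-c-Myc (22.4% of all), and 0 of 10 with both hairpins (13.1%), each against shControl. It also called 0 of 10 between the double knockdown and sh-c-Myc (6.36%) and between the double knockdown and sh-Bcl2 (8.84%). At 1.5-fold, 1 of 10 was lower under sh-Bcl2 (FIS1) and 0 higher, beside 5.62% and 4.56% of all genes. Under sh-c-Myc 2 of 10 were lower (OMA1 and MIEF1) and 0 higher, beside 20.5% and 19.8%. With both hairpins 2 of 10 were lower (FIS1 and MIEF1) and 0 higher, beside 14.9% and 13.4%. The median log2 ratio of the 10 to shControl was 0.06 under sh-Bcl2, -0.36 under sh-c-Myc and -0.14 with both hairpins, beside -0.0003, -0.02 and -0.01 for all filtered genes. With total counts in place of TMM factors the sh-c-Myc medians were -0.17 for the 10 genes and 0.16 for all, so ratios in that comparison are relative to this shift.

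**Figure D2:**
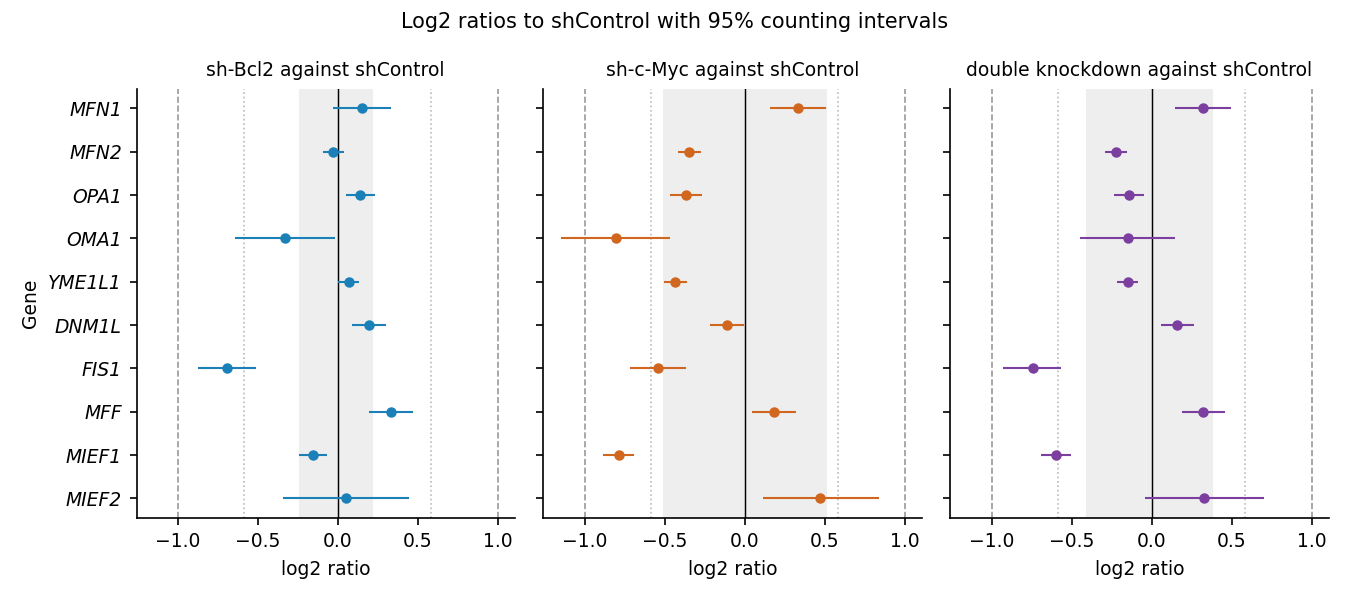
Log2 ratios of TMM-scaled counts to shControl for the 10 genes, with 95% counting intervals. Dashed lines mark 2-fold, dotted lines 1.5-fold, and the grey band the range between the quartiles of all 13646 filtered genes. No gene reaches a dashed line, and the genes past a dotted line are FIS1, OMA1 and MIEF1.

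The 2 by 2 layout also allowed 1 test across all genes, an additive edgeR quasi-likelihood fit with 1 term per hairpin. Any departure from additivity and any spread between libraries share its 1 residual degree of freedom, so its p-values measure only the spread of these libraries. That spread is moderated over all tested genes, with a median of 35.4 prior degrees of freedom, so each p-value leans mostly on other genes. MIEF1 was the only gene of the 10 past an adjusted p of 0.05 for the c-Myc hairpin, where 28.8% of 12855 tested genes were past it (15.9% lower). It fell by 0.57 on the log2 scale (Benjamini-Hochberg adjusted p = 0.0054), lower in both libraries with that hairpin than in both without. MIEF1 also departed from additivity by 0.35 [0.21 to 0.48] on the log2 scale, which an additive fit does not model. The edgeR adjusted p of the other 9 ran from 0.174 (OPA1) to 0.907 (DNM1L) for that term. For the Bcl-2 hairpin 0 of 10 passed edgeR's test (0.296% of all genes did). At an unadjusted p under 0.05 the count was 1 of 10 in edgeR and in limma-voom (FIS1) and 0 of 10 in DESeq2, and after adjustment it was 0 of 10 in each tool. The log2 change of FIS1 for that term was -0.47 (edgeR adjusted p = 0.382), lower in both libraries with the hairpin than in both without.

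The mitofusin genes lay on opposite sides of shControl where the c-Myc hairpin was present. MFN2 (ENSG00000116688, chromosome 1, 11980181 to 12013514, GRCh38) stood at 243 CPM in shControl, 239 under sh-Bcl2, 191 under sh-c-Myc and 208 with both hairpins. MFN1 (ENSG00000171109, chromosome 3, 179347692 to 179394931) stood at 32.4, 36.0, 40.9 and 40.6 CPM in that order. Both libraries with the c-Myc hairpin were thus the lowest for MFN2 and the highest for MFN1. Under sh-c-Myc the log2 ratio to shControl was -0.35 [-0.42 to -0.27] for MFN2 and 0.33 [0.16 to 0.51] for MFN1, and with both hairpins -0.22 [-0.29 to -0.15] and 0.32 [0.15 to 0.50]. Under sh-Bcl2 both intervals included a ratio of 1.

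The ratio between partner genes within a library does not depend on how libraries are scaled. MFN2 stood 8.98 times above MFN1 in FPKM in shControl, 7.94 times under sh-Bcl2, 5.60 times under sh-c-Myc and 6.15 times with both hairpins. The ratio of MFN1 to MFN2 was therefore 1.60-fold higher under sh-c-Myc than in shControl [1.41 to 1.82] and 1.46-fold higher with both hairpins [1.28 to 1.66]. Once the dependence on GC content and transcript length across genes was removed, the log2 change of that ratio with both hairpins was 0.33 in place of 0.55, while under sh-c-Myc it was 0.67 in place of 0.68. MFN1 transcripts had a median GC content of 39.0% and MFN2 transcripts one of 54.0%. The pairs were compared after their values had been seen.

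**Figure D3:**
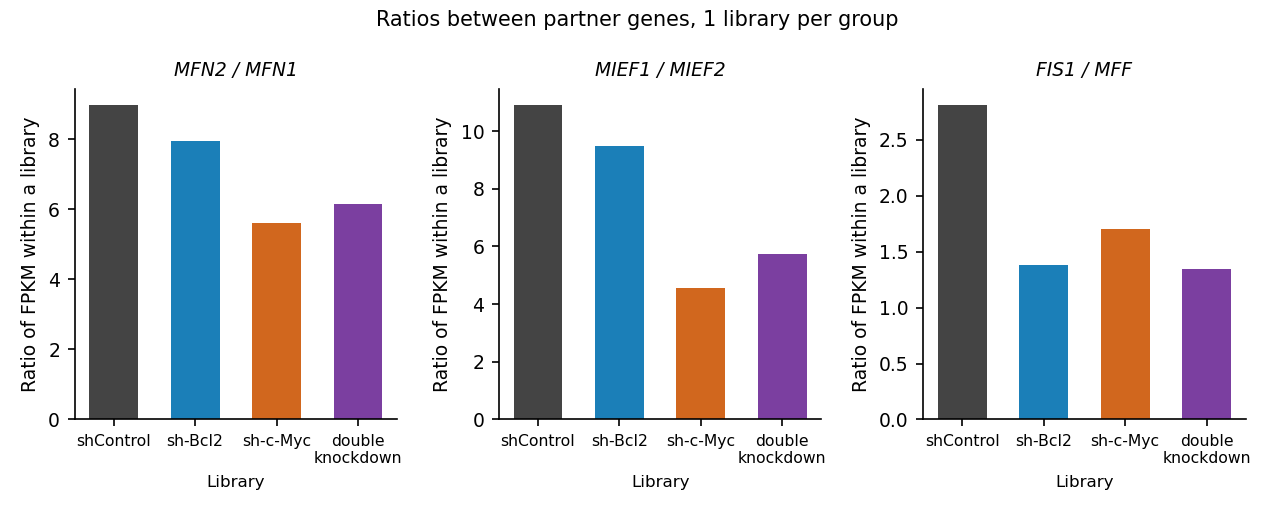
Ratio of FPKM between partner genes within each library (bars from 0, no error shown, 1 library per group). MFN2 over MFN1 and MIEF1 over MIEF2 are lowest under sh-c-Myc (5.60 and 4.55), and FIS1 over MFF is highest in shControl (2.81).

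The inner membrane fusion gene OPA1 and its peptidase gene YME1L1 had the most alike patterns among the 10. OPA1 (ENSG00000198836, chromosome 3, 193593144 to 193697823) stood at 127 CPM in shControl, 140 under sh-Bcl2, 98.6 under sh-c-Myc and 116 with both hairpins. YME1L1 (ENSG00000136758, chromosome 10, 27110112 to 27155266), whose product is the i-AAA protease of the inner membrane, stood at 252, 265, 187 and 227 CPM. Both were highest under sh-Bcl2 and lowest under sh-c-Myc, with a Euclidean distance of 0.10 between their 3 log2 ratios to shControl, the smallest of any pair. After removal of the GC and length trend, the log2 ratio under sh-Bcl2 was 0.005 [-0.09 to 0.10] for OPA1 and -0.03 [-0.10 to 0.03] for YME1L1, in place of 0.14 and 0.07, so no direction can be given there. Under sh-c-Myc OPA1 was 1.29-fold lower than in shControl [1.21 to 1.38] and YME1L1 1.35-fold lower [1.29 to 1.42], neither past 1.5-fold.

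OMA1 (ENSG00000162600, chromosome 1, 58415384 to 58546802), which encodes the stress-activated metallopeptidase that cuts OPA1, had the lowest count of the 3 genes of inner membrane fusion. It held 188 counts in shControl, 161 under sh-Bcl2, 119 under sh-c-Myc and 188 with both hairpins, or 13.3, 10.6, 7.63 and 12.0 CPM. The double knockdown was thus close to shControl while both single knockdowns were lower. The log2 ratio to shControl was -0.33 under sh-Bcl2 [-0.64 to -0.02], -0.80 under sh-c-Myc [-1.15 to -0.47] and -0.15 with both hairpins [-0.45 to 0.15], and the sh-Bcl2 interval included a ratio of 1 with total counts or upper quartile factors. With both hairpins OMA1 was 1.57-fold higher than under sh-c-Myc alone (log2 ratio 0.65 [0.32 to 1.00]). That value is near the 1.5-fold bound and was under it with total counts (0.55), with upper quartile factors (0.56), with the GC and length trend removed (0.44) and on the log2(FPKM + 1) scale (0.41). OMA1 shares 6.91% of its exonic bases with DAB1 on the same strand and YME1L1 6.04% with MASTL on the opposite strand, and DNM1L (2.77%), OPA1 (2.30%) and MFF (0.78%) overlap noncoding genes on the opposite strand. The library kit does not mark strand, so reads from shared bases cannot be told apart.

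The log2 ratio with both hairpins minus the sum of both single log2 ratios, the departure from additivity, was largest for OMA1 among the 10, at 0.98 [0.53 to 1.43]. By the 2-fold rule 0 of 10 genes departed (8.77% of all genes did), and by the 1.5-fold rule OMA1 alone did, on the higher side, beside 9.97% of all genes higher and 9.23% lower. Its departure ran from 0.64 to 1.00 over the alternative settings. FIS1 departed by 0.49 [0.23 to 0.75] and MIEF1 by 0.35 [0.21 to 0.48], both on the higher side, and the other 7 lay between -0.19 and 0.21. All filtered genes had a median departure of 0.05, with quartiles at -0.29 and 0.35.

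**Figure D4:**
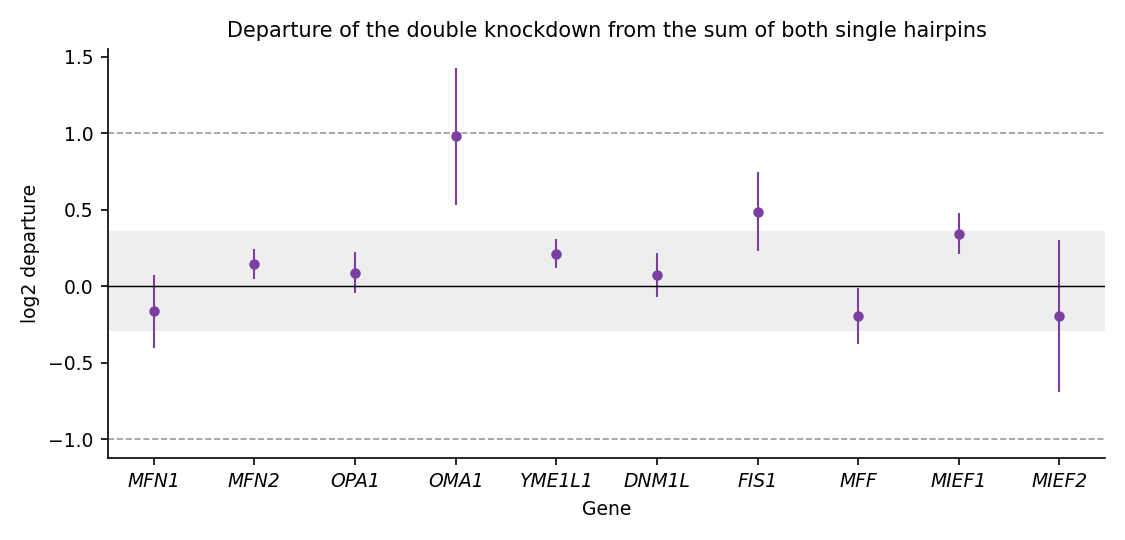
Departure of the double knockdown from additivity (its log2 ratio to shControl minus those of both single knockdowns) for the 10 genes, with 95% counting intervals. The grey band is the range between the quartiles of all filtered genes and dashed lines mark 2-fold. OMA1 lies highest at 0.98, just under the 2-fold line. The intervals of MFN2, YME1L1, FIS1 and MIEF1 also lie above 0, and that of MFF lies below 0. With total counts or upper quartile factors those of MFN2 and YME1L1 include 0, and with DESeq2 size factors or the GC and length trend removed that of MFF does.

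The division GTPase gene DNM1L (ENSG00000087470, chromosome 12, 32679200 to 32745650) had the smallest summed absolute log2 ratios to shControl among the 10 (0.47 over 3 libraries). It stood at 97.5 CPM in shControl, 112 under sh-Bcl2, 90.3 under sh-c-Myc and 109 with both hairpins. The log2 ratio to shControl was 0.20 under sh-Bcl2 [0.09 to 0.30] and 0.16 with both hairpins [0.06 to 0.26]. Under sh-c-Myc it was -0.11 [-0.22 to -0.0016] with TMM scaling, 0.08 with total counts and 0.07 on the log2(FPKM + 1) scale, so no direction can be given there. DNM1L is close to YME1L1 in transcript GC content (42.4% and 42.1%) and in exonic length (7282 and 7335 bases). The sh-Bcl2 ratio of YME1L1 had no clear direction once the GC and length trend was removed. DNM1L ratios with that trend removed are not given here, so the rise of DNM1L under sh-Bcl2 is uncertain.

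FIS1 (ENSG00000214253, chromosome 7, 101239458 to 101252316) was lower in every knockdown library than in shControl. It stood at 45.0 CPM in shControl, 27.9 under sh-Bcl2, 30.9 under sh-c-Myc and 26.9 with both hairpins. It was 1.61-fold lower under sh-Bcl2 [1.42 to 1.83], 1.46-fold lower under sh-c-Myc [1.29 to 1.64] and 1.67-fold lower with both hairpins [1.48 to 1.90]. Log2 ratios of all genes fell with transcript GC content in both comparisons that add the Bcl-2 hairpin (Spearman rho across 13646 genes, which are not independent, -0.29 for the hairpin alone and -0.258 when added to sh-c-Myc). FIS1 transcripts have a median GC content of 58.4%, and with that trend removed its log2 ratio under sh-Bcl2 was -0.52 in place of -0.69, and with both hairpins -0.57 in place of -0.74. Both were then under 1.5-fold. The sh-c-Myc value was -0.55 in place of -0.54.

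MFF (ENSG00000168958, chromosome 2, 227325151 to 227357836), the main DRP1 receptor gene, stood at 54.8 CPM in shControl, 69.0 under sh-Bcl2, 62.2 under sh-c-Myc and 68.5 with both hairpins. It was higher than in shControl in all 3, by 1.26-fold under sh-Bcl2 [1.15 to 1.38], 1.14-fold under sh-c-Myc [1.03 to 1.25] and 1.25-fold with both hairpins [1.14 to 1.37]. FIS1 thus stood 2.81 times above MFF in FPKM in shControl, 1.38 times under sh-Bcl2, 1.70 times under sh-c-Myc and 1.34 times with both hairpins. The ratio of FIS1 to MFF was 2.03-fold lower under sh-Bcl2 [1.74 to 2.37], 1.65-fold lower under sh-c-Myc [1.42 to 1.92] and 2.09-fold lower with both hairpins [1.79 to 2.44], and on the log2 scale -0.78 and -0.84 under sh-Bcl2 and the double knockdown with the GC and length trend removed, in place of -1.02 and -1.07.

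MIEF1 and MIEF2, which encode the paralogous receptors MiD51 and MiD49, lay on opposite sides of shControl under the c-Myc hairpin, as the mitofusin genes did. MIEF1 (ENSG00000100335, chromosome 22, 39499432 to 39518132) stood at 156 CPM in shControl, 141 under sh-Bcl2, 90.6 under sh-c-Myc and 103 with both hairpins. MIEF2 (ENSG00000177427, chromosome 17, 18260534 to 18266552) stood at 7.52, 7.80, 10.5 and 9.47 CPM, from 106, 118, 163 and 148 counts. Both c-Myc hairpin libraries were the lowest for MIEF1 and the highest for MIEF2. MIEF1 was 1.73-fold lower under sh-c-Myc [1.61 to 1.85] and 1.51-fold lower with both hairpins [1.42 to 1.61], the latter under 1.5-fold with total counts, with upper quartile factors, on the log2(FPKM + 1) scale and with the GC and length trend removed. MIEF2 was 1.39-fold higher under sh-c-Myc [1.08 to 1.79], and its interval with both hairpins included a ratio of 1 (log2 ratio 0.33 [-0.04 to 0.71]).

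MIEF1 stood 10.9 times above MIEF2 in FPKM in shControl, 9.47 times under sh-Bcl2, 4.55 times under sh-c-Myc and 5.74 times with both hairpins. The ratio of MIEF1 to MIEF2 was 2.39-fold lower under sh-c-Myc than in shControl [1.86 to 3.08] and 1.90-fold lower with both hairpins [1.47 to 2.46]. Under sh-Bcl2 the interval of that change included no change (log2 -0.20 [-0.59 to 0.18]). MIEF1 shares 2.82% of its exonic bases with a neighbouring gene on the same strand, AL022312.1, and MIEF2 shares none.

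Where the Bcl-2 hairpin was added to the c-Myc hairpin, 1 of 10 was higher at 1.5-fold (OMA1; 5.96% of all genes were higher and 9.06% lower). YME1L1 had a log2 ratio of 0.28 [0.21 to 0.35], DNM1L 0.27 [0.17 to 0.37] and OPA1 0.23 [0.13 to 0.33]. FIS1 had one of -0.20 [-0.39 to -0.01], and its interval included no difference with DESeq2 size factors or, like that of OPA1, with the GC and length trend removed. OPA1 and YME1L1 thus lay between their levels under sh-c-Myc and in shControl. Where the c-Myc hairpin was added to the Bcl-2 hairpin, 0 of 10 were past 1.5-fold in either direction (10.7% of all genes were higher and 10.6% lower). MIEF1 had a log2 ratio of -0.44 [-0.54 to -0.35] there, OPA1 -0.28 [-0.37 to -0.19], YME1L1 -0.22 [-0.29 to -0.15] and MFN2 -0.20 [-0.27 to -0.13]. The interval of FIS1 included no difference (-0.05 [-0.25 to 0.15]).

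Over all 10 genes, the libraries with and without the c-Myc hairpin did not overlap for 6, beside 63.6% of all filtered genes. MFN1 and MIEF2 were higher (30.6% of all) and MFN2, OPA1, YME1L1 and MIEF1 lower (33.0%). For the Bcl-2 hairpin they did not overlap for 3, beside 22.8% of all genes, with DNM1L and MFF higher (11.4%) and FIS1 lower (11.4%). With total counts MFF was among the higher genes for the c-Myc hairpin and not for the Bcl-2 hairpin. These counts of 10 are near the shares of all genes.

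Summed over roles, fusion transcripts (MFN1, MFN2 and OPA1) came to 65.0 FPKM in shControl and those of division (DNM1L and the 4 receptor genes) to 66.5 FPKM. The ratio of the fusion sum to the division sum was 0.978 in shControl, 1.11 under sh-Bcl2, 1.035 under sh-c-Myc and 1.08 with both hairpins. The fusion sum itself was higher than in shControl under sh-Bcl2 alone. Of the division genes, FIS1 and MIEF1 were lower in FPKM in each knockdown library, and DNM1L, MFF and MIEF2 higher. With TMM scaling DNM1L was lower under sh-c-Myc (log2 ratio -0.11 [-0.22 to -0.0016]), so its direction there depends on the scaling. FIS1 stood at 23.8 FPKM in shControl and 14.98, 18.6 and 15.1 in the knockdowns in that order. The ratio was not taken without FIS1, so no shift from division to fusion can be read from it. Within the 4 receptor genes the make-up of the sum differed more. FIS1 made up 44.3% of receptor FPKM in shControl, 32.8% under sh-Bcl2, 41.0% under sh-c-Myc and 35.5% with both hairpins, and MFF 15.7%, 23.7%, 24.1% and 26.4%. MIEF1 made up 36.6%, 39.3%, 28.6% and 32.4%, and MIEF2 3.35%, 4.15%, 6.28% and 5.66%. MFF thus took a larger share in each knockdown library than in shControl, and MIEF1 a smaller one in both c-Myc hairpin libraries.

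FIS1 had the largest summed absolute log2 ratios to shControl among the 10 (1.98 over 3 libraries). Of 9510 other genes at 10 CPM or more, the nearest to it by Euclidean distance over those 3 ratios were MOGS (0.05), CHRFAM7A (0.08) and PABPN1 (0.10). CHRFAM7A holds a partial copy of CHRNA7, so its counts are uncertain. Among the 10 genes MFN1 and MIEF2 were nearest to each other (0.17), as were OMA1 and MIEF1 (0.48). The 3 ratios share shControl, so likeness between them is a description only.

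Other genes of mitochondrial dynamics were taken from a list of 46, of which 43 passed the CPM filter. That list was chosen with earlier results of these data known, so its counts beside those of all genes are a description only. Under sh-c-Myc 11 of 43 were lower at 2-fold and 0 higher, beside 9.86% and 12.5% of all genes, and under sh-Bcl2 0 of 43 were called in either direction. PLD6, an outer membrane phospholipase that acts in mitofusin-dependent fusion, was 3.39-fold lower under sh-c-Myc [2.62 to 4.47], and PGAM5, an outer membrane phosphatase that acts on DRP1, 2.93-fold lower [2.70 to 3.19]. The matrix protease gene LONP1 was 2.71-fold lower [2.57 to 2.87] and CCNB1, a mitotic cyclin gene whose kinase complex phosphorylates DRP1, 3.05-fold lower [2.77 to 3.36]. The other 7 were INF2, MTFR2, MSTO1, STOML2, CLPP, SENP3 and CDK1. With both hairpins 6 of 43 were lower and 0 higher, beside 5.99% and 7.1% of all genes, among them CLPP (2.59-fold lower [2.36 to 2.84]), LONP1 (2.41-fold [2.29 to 2.54]), PLD6 (2.38-fold [1.89 to 3.02]) and PGAM5 (2.08-fold [1.94 to 2.24]). The median log2 ratio of the 43 was -0.13 under sh-Bcl2, -0.27 under sh-c-Myc and -0.18 with both hairpins.

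Genes of cristae organisation, which shape the folds of the inner membrane, are given beside the 10. Of 13 genes of the MICOS complex, prohibitins and their outer membrane partners, 11 were lower at 1.5-fold under sh-c-Myc and 1 higher, beside 20.5% and 19.8% of all genes, with a median log2 ratio of -0.78. The fission and fusion genes had 2 of 10 lower and a median of -0.36. With both hairpins 5 of 13 were lower and 1 higher, beside 14.9% and 13.4% of all genes (median -0.53). Under sh-Bcl2 2 of 13 were lower and 1 higher, beside 5.62% and 4.56% (median -0.23). Under sh-c-Myc the prohibitin gene PHB had a log2 ratio of -1.40 [-1.54 to -1.26] and MICOS13 one of -1.22 [-1.42 to -1.02]. The gene on the higher side was MICOS10 (1.05 [0.32 to 1.86]), at no more than 3.27 CPM in any library. These 3 were named after their values were seen, and whether the lists differ was not tested. The MICOS list was also chosen with earlier results of these data known, so its counts are a description only.

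**Figure D5:**
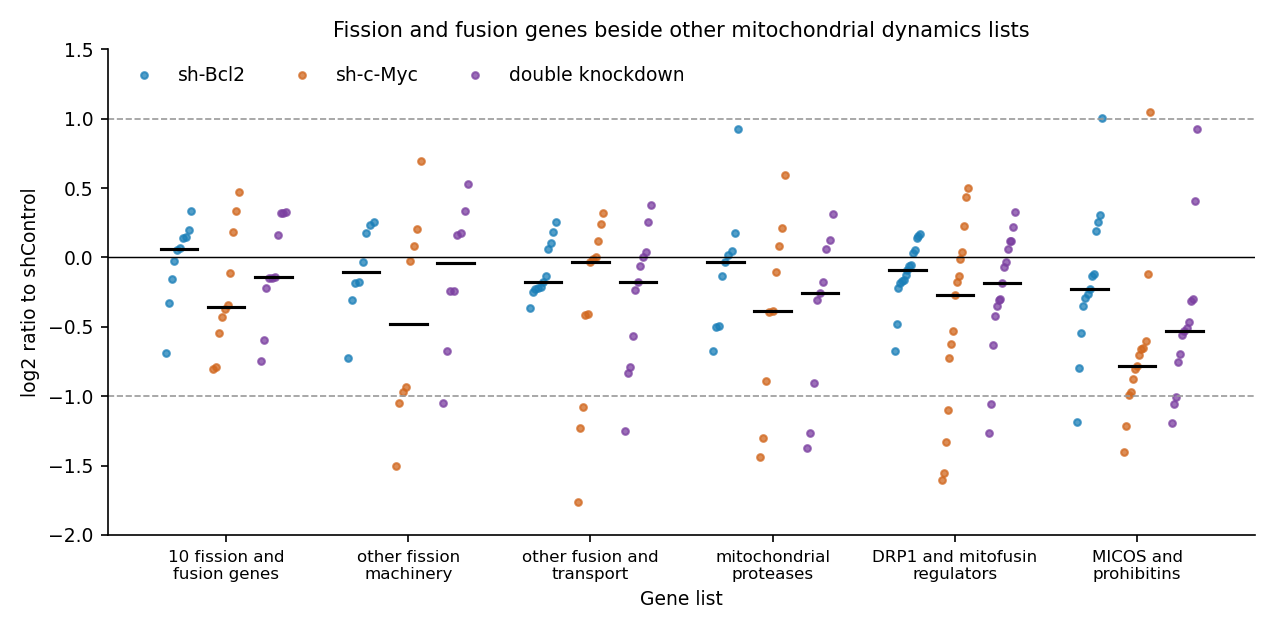
Log2 ratios to shControl of the 10 fission and fusion genes and of 5 further lists, 1 point per gene that passed the CPM filter and a black bar at each list's median. Dashed lines mark 2-fold. Under sh-c-Myc the 10 genes lie between -0.80 and 0.47 with a median of -0.36, and the MICOS and prohibitin list has a median of -0.78.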

How the data were processed

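The deposited table holds read counts per gene and FPKM for 4 libraries. Per the submitters' processing notes, reads were aligned to GRCh38 with HISAT2 and counted with HTSeq 0.13.5. For the HISAT2 version, annotation and strand setting, nothing is given in the sources used here. Per the labels, NEBNext libraries were made from 1.5 µg RNA, and knockdown was checked by Western blot at 72 h of doxycycline. Per the file headers the authors' FPKM values are counts scaled to library size and gene length. Gene lengths implied by the counts and FPKM equal the exon union of GENCODE 29 for 99.65% of genes. One list gene, MARCHF5, has a date in place of its symbol and was matched through an alias of its name.

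Log2 ratios of TMM-scaled counts (prior 0.5, edgeR 4.0.16) have exact conditional binomial 95% intervals. Departures and ratios of pairs have delta-method intervals. The additive fit used genes at 1 CPM in at least 2 libraries (common dispersion 0.0211), and Benjamini-Hochberg adjustment over the whole set. DESeq2 1.42.0 and limma 3.58.1 were alternatives. The trend on GC content and length was removed by lowess over filtered genes. Ratios, intervals and the additive fit were tested on simulated data. All 10 genes are reported. Further genes were named by the largest conservative fold (up to 4 per direction and comparison with shControl) or by distance of log2 ratios. The members and lists were chosen with earlier results of these data known. Replicate spread cannot be measured with 1 library per group.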

Additional observations from a re-analysis of the deposited data

Results flagged for a closer look

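Adding the Bcl-2 hairpin had opposite signs for OMA1 and MIEF1 in the absence and presence of the c-Myc hairpin on TMM-scaled counts, where the counting intervals exclude a ratio of 1 on both sides. For OMA1 the log2 ratio was -0.33 [-0.64 to -0.02] under sh-Bcl2 against shControl and 0.65 [0.32 to 1.00] when it was added to sh-c-Myc, a departure from additivity of 0.98. For MIEF1 it was -0.15 [-0.24 to -0.07] and 0.19 [0.09 to 0.30], a departure of 0.35. The signs were the same under each setting tried, but the intervals were not all clear of 0. With total counts or upper quartile factors the first interval of OMA1 included 0 (-0.30 [-0.62 to 0.01] with total counts), as did the second of MIEF1 (0.09 [-0.01 to 0.20] with total counts). After removal of the GC and length trend the first of MIEF1 did (-0.06 [-0.14 to 0.03]). With 1 library per group neither difference was tested.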

How the results depend on the processing

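With 2-fold calls the count of members called was 0 in all 5 comparisons and for the departure from additivity under each scaling, filter, unit, prior count and trend removal tried. At 1.5-fold the counts were 1 (sh-Bcl2), 2 (sh-c-Myc), 2 (both hairpins), 1 (both hairpins against sh-c-Myc), 0 (both hairpins against sh-Bcl2) and 1 (departure). Combining 1.5-fold with the other settings was added after seeing the data. The sh-c-Myc count was then 3 with total counts or upper quartile factors, where MIEF2 was added, and 0 with FPKM + 1, and the double knockdown count ran from 0 to 2. DNM1L under sh-c-Myc changed sign to 0.071 with FPKM + 1. The cause was not tested. MIEF1 passed the c-Myc hairpin test in all 5 fits, with adjusted p from 0.00439 (limma-voom) to 0.0397 (DESeq2).

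Over all genes, the c-Myc hairpin test called 3708 with edgeR and 2065 with DESeq2, and the Bcl-2 hairpin test 38 with edgeR, 13 with DESeq2, 3 with DESeq2 size factors in edgeR and 58 without a filter. In the order sh-Bcl2, sh-c-Myc and both hairpins against shControl, both hairpins against sh-c-Myc, both against sh-Bcl2, and departure, 2-fold calls numbered 629, 3052, 1786, 868, 1206 and 1197. They were 163, 1872, 996, 213, 561 and 505 with the filter at a mean of 50 counts, 100, 1337, 593, 155, 298 and 368 with FPKM + 1, and 1389, 5502, 3856, 2050, 2901 and 2620 at 1.5-fold. Without a CPM filter the double knockdown differed from sh-c-Myc in 1335. The share of calls that were higher went from 55.9% to 71.0% under sh-c-Myc with total counts and to 41.0% with the filter at a mean of 50 counts, from 54.3% to 64.4% with both hairpins with upper quartile factors, and from 34.7% to 20.9% for the departure with upper quartile factors. Against sh-c-Myc it went from 26.2% to 50.7% with the filter at a mean of 50 counts and 39.7% at 1.5-fold, and for the departure to 22.2% with total counts, 46.7% with the filter at a mean of 50 counts, 51.9% at 1.5-fold and 22.8% with FPKM + 1. With upper quartile factors it was 70.7% under sh-c-Myc.

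No paired analysis was possible because each group holds 1 library, all with the same replicate number, and leaving out a library leaves the additive fit with no residual degree of freedom. MIEF2 (106 to 163 counts) and OMA1 (119 to 188 counts) have the widest counting intervals of the 10.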
